A study of Homo sapiens with 23 samples.

Results

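The early response of HEK293T cells to polyplexes was read from 5 of the 23 arrays of the series, namely 3 arrays of treated cells and 2 arrays of untreated cells, all at 2 h. HEK293T cells derive from human embryonic kidney and express the large T antigen of the virus SV40. Treated cells had received polyplexes of 25 kDa branched polyethylenimine (bPEI) and the plasmid pEGFP-LUC, which codes for green fluorescent protein (GFP) and luciferase as reporters, 18 h after seeding, and were harvested 2 h later. Untreated cells received no polyplexes. Neither group was sorted, so the treated cultures hold cells that took up polyplexes together with cells that did not, and a lower value cannot tell fewer cells with a transcript apart from less of it per cell. Cells given the polymer alone or the plasmid alone were not analysed here. The members are all 54613 probe sets other than the array's own controls, of which 41707 carry a gene symbol (20034 symbols). For later values, GFP-positive cells are set against GFP-negative cells, both sorted from treated cultures at the times of 8 and 16 h (3 arrays a group), and those 12 arrays share no array with the 2 h comparison.

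A polyplex forms when the positive charges of the polymer bind and condense the negatively charged DNA. Such particles attach to cell surface heparan sulfate, enter by endocytosis, and have to leave the endosome before the plasmid can reach the nucleus, where the reporter is transcribed. Foreign DNA and membrane stress are known to induce interferon-stimulated, heat shock and immediate early genes in other settings, and cells also adjust arrestin-domain and redox genes such as TXNIP to their supply of nutrients.

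All 5 arrays carried markers of the labelled line: 12 of 13 measured HEK293 marker genes, among them neurofilament genes, lay above the array median on every array, with a mean level of 8.18 to 8.28 log2 units in treated cells and 8.33 to 8.36 in untreated cells. Haematopoietic markers averaged 4.38 to 4.41 log2 units in treated cells and 4.26 to 4.33 in untreated cells, and stromal and endothelial markers averaged 4.25 to 4.32 in treated cells and 4.27 to 4.32 in untreated cells. Some arrays stood apart in control probe sets. For ACTB the 3' control exceeded the 5' control by 2.68 log2 units in treated replicate 1, against 1.23 to 1.44 on the other 4 arrays. The added control transcript BioB stood at 8.09 log2 units in untreated replicate 2, with 5.08 to 5.65 elsewhere, and the 5' control of 18S ribosomal RNA read 11.8, 11.7 and 11.6 in treated replicates 1 to 3, against 12.7 in untreated replicate 1 and 9.80 in untreated replicate 2. Their part in the results was not tested. Pairs of arrays correlated across all probe sets at Pearson r of 0.9934 to 0.9972. The titles call the arrays of a group biological replicates, and the design text places the treated experiments on 3 days. Which array belongs to which day is not labelled, so day is not in the fit, and the number of arrays limits the precision.

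In treated cells 117 probe sets were higher and 183 lower than in untreated cells, 300 of 54613 in all, at a Benjamini-Hochberg adjusted p under 0.05 in limma. These are 0.214% and 0.335% of the probe sets tested, 0.549% together. At an unadjusted p under 0.05 there were 5316. In all 300 the treated and untreated arrays did not overlap, as was so for 19.8% of all probe sets. Most changes were modest, with a median size of 0.72 log2 units among the higher and 0.75 among the lower probe sets, and 26 were at least 2-fold higher and 34 at least 2-fold lower. The higher probe sets with a symbol stood for 69 genes and the lower for 143. Of the 26 probe sets that were at least 2-fold higher, 17 carry no gene symbol. Treated replicate 3 was the highest array in 69 of the 117 higher probe sets, and untreated replicate 2 the highest in 122 of the 183 lower ones. The count rests on single arrays: leaving out untreated replicate 2 left 27 calls, leaving out treated replicate 3 left 46 and leaving out treated replicate 2 left 124, whereas 280 and 284 were called when replicate 1 of the untreated or of the treated cells was dropped. These are totals called in each fit, not calls kept from the 300: of the 284 without treated replicate 1, 199 were among the 300. Many of the calls made without untreated replicate 1 were likewise not among them. All 300 kept their sign in each of these 5 fits, but this was fixed in advance. Where the groups do not overlap, leaving out 1 array cannot reverse the sign.

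**Figure D1:**
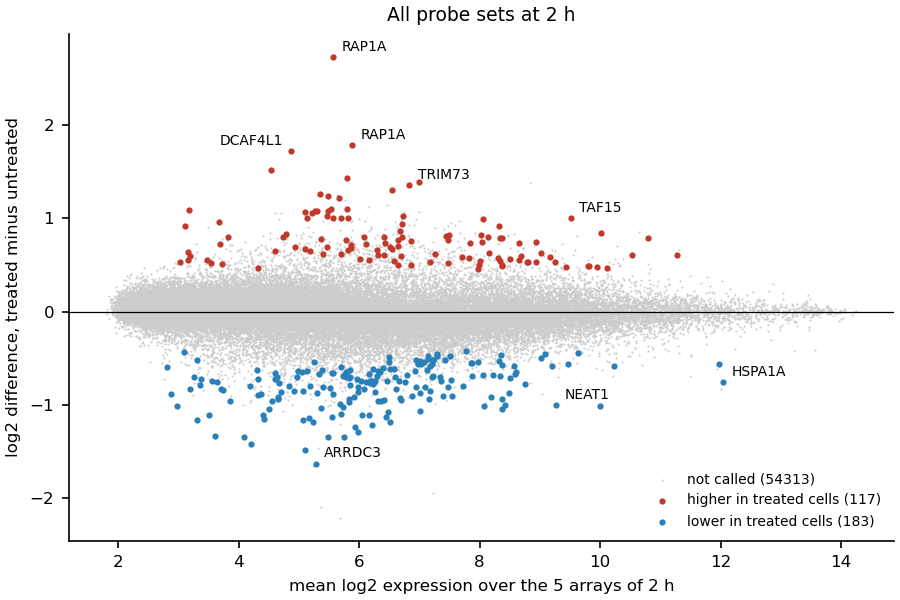
Each point is 1 probe set, with its mean log2 expression over the 5 arrays of 2 h on the x axis and its log2 difference, treated minus untreated, on the y axis; red and blue mark the 117 higher and 183 lower probe sets and grey the others. RAP1A at 2.73 and ARRDC3 at -1.63 are the ends of the called range, and most called points lie within 1 log2 unit of 0.

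The calls that held in all 5 fits with 1 array left out were mostly of lower transcripts: 11 probe sets did so, 9 lower and 2 higher. SLC40A1, which encodes the iron exporter ferroportin, had 2.84, 2.92 and 2.76 log2 units in treated cells, against 3.85 and 4.16 in untreated cells. Its difference of -1.16 (SE 0.12, adjusted p = 0.000471, limma) was read at values below the array medians of 4.85 to 4.90, and its other probe set, 233123_at, was at 0.08. TSC22D1, a transcriptional regulator of the TSC22 family, had 5.11, 5.75 and 5.54 log2 units on probe set 235315_at in treated cells, against 6.78 and 6.72 in untreated cells, a difference of -1.28 (SE 0.16, adjusted p = 0.0031, limma). The TSC22D1 probe set with the highest mean, 215111_s_at, was at -0.16 (adjusted p = 0.693). The remaining named genes of the 9 were TTC30B (-1.14), TLCD5 (-1.11), the zinc finger gene ZNF287 (-0.95), DIDO1 (-0.92), TIMM23 of the mitochondrial import machinery (-0.91) and GIT2 (-0.83), and 1 probe set without a symbol was at -1.41. The 2 higher ones, at 1.30 and 1.39, carry no symbol. These genes were chosen by that stability, after their values were seen.

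Among the higher transcripts RAP1A led, on part of its probe sets. RAP1A encodes a small GTPase of the Ras family that acts in integrin adhesion and at cell junctions. On probe set 1555340_x_at it had 5.88, 6.51 and 7.58 log2 units in treated cells, against 3.94 and 3.91 in untreated cells. All 3 treated arrays lay above both untreated arrays, and treated replicate 3 was the highest. The difference was 2.73 log2 units, a 6.64-fold higher level (SE 0.37, adjusted p = 0.00491, limma). On 1555339_at it had 5.88, 6.57 and 7.36 log2 units in treated cells, against 4.46 and 5.17 in untreated cells, a difference of 1.79 (SE 0.35, adjusted p = 0.0287). Here too the groups did not overlap, and treated replicate 3 was again the highest. The other 2 RAP1A probe sets did not follow: 202362_at had 10.43 log2 units in each of the 3 treated arrays, against 10.36 and 10.69 in untreated cells (difference -0.09, adjusted p = 0.948), and 228548_at was at -0.05. RAP1B, the close relative of RAP1A, was at -0.01. The same 2 RAP1A probe sets were higher in GFP-positive than in GFP-negative cells, by 4.77 and 4.61 log2 units at 8 h and by 3.51 and 3.72 at 16 h (adjusted p of 2.03e-05 or less in each, limma). For 1555339_at the 2 h difference was smaller than that of 8 h (adjusted p = 0.00955 for the difference of contrasts), and for 1555340_x_at this test did not pass (adjusted p = 0.0581). Without untreated replicate 2 the adjusted p of 1555340_x_at was 0.0595, and over the 5 fits with 1 array left out it lay between 0.00175 and 0.0595. With the 24 h arrays in the fit, the adjusted p of the RAP1A probe sets was 0.866 and 0.981. A probe set whose name ends in x_at holds probes that can also bind other transcripts.

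DCAF4L1 followed. It belongs to a family of substrate receptor proteins for a cullin ubiquitin ligase. It had 5.95, 5.12 and 5.61 log2 units in treated cells, against 4.01 and 3.67 in untreated cells. The groups lay more than 1 log2 unit apart, and the difference was 1.72, or 3.29-fold (SE 0.35, adjusted p = 0.0345, limma). DCAF4L1 was also higher in GFP-positive cells, by 2.09 log2 units at 8 h (adjusted p = 0.000928) and 1.51 at 16 h (adjusted p = 0.0111). Its 2 h call held in 1 of 5 fits with 1 array left out (adjusted p = 0.0455 to 0.357). ALDH8A1, an aldehyde dehydrogenase of tryptophan breakdown, was 1.22 log2 units higher in treated cells at 2 h (adjusted p = 0.0238), and in GFP-positive cells it was 1.09 higher at 8 h and 1.24 higher at 16 h, with a pass each time. The 2 h call of ALDH8A1 held in 1 of 5 fits with 1 array left out (adjusted p = 0.0412 to 0.185) and was lost with the 24 h arrays in the fit (adjusted p = 0.419).

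TAF15, which encodes an RNA-binding protein, had 9.81, 10.18 and 9.76 log2 units on probe set 202840_at in treated cells, against 8.89 and 8.94 in untreated cells (difference 1.00, SE 0.20, adjusted p = 0.0287, limma). Every treated array was above every untreated array. CLK4, a kinase of SR splicing factors, was 0.74 log2 units higher at 2 h (adjusted p = 0.0157, limma). In GFP-positive over GFP-negative cells CLK4 was 0.99 higher at 8 h and 0.96 at 16 h. JMJD6, a hydroxylase that acts on splicing factors, was higher on 3 probe sets, by 0.49, 0.57 and 0.76 log2 units. SRRM2, a large protein of nuclear speckles, was 0.79 higher, the Ran exchange factor RCC1 0.85 and LINC00342, a long noncoding RNA, 1.02. TAF15, CLK4, SRRM2 and RCC1 are given by the probe set with the highest mean. The other probe sets were at 0.48, 0.33 and -0.04 for TAF15 and at 0.57, -0.16 and 0.03 for CLK4. For SRRM2 they were at 0.23, 0.04 and 0.02, and for RCC1 at 0.56. Other genes passed on a dimmer probe set alone. EP400, a chromatin remodelling subunit, was 0.82 higher on 230629_s_at and at 0.06 on 212375_at, its probe set with the highest mean. ESS2 was 0.86 higher on 239730_at and at -0.06 on 32032_at, and the zinc finger gene HIVEP3 was 0.83 higher on 235122_at and at -0.27 on 232581_x_at. ZBTB1, also a zinc finger gene, was 1.09 higher on 205092_x_at, where the arrays lay at 2.17 to 3.75 log2 units, and at 0.14 on 213376_at. CALML4, a calmodulin-like gene, was higher on probe sets 221879_at and 64408_s_at, by 0.92 and 0.99 log2 units. PHF13, a chromatin protein, was 0.48 higher. JMJD6, CLK4 and SRRM2 were chosen after their values were seen. Leaving out untreated replicate 2 ended the call of TAF15, whose adjusted p lay between 0.0454 and 0.2325 over the 5 such fits. EP400 and ESS2 stayed called in 4 of these 5 fits and ZBTB1 in 3. SRRM2 (adjusted p = 0.0161 to 0.616), PHF13 and the CALML4 probe sets stayed called in 2, CLK4, HIVEP3 and LINC00342 in 1, JMJD6 in 0 or 1 by probe set and RCC1 in 0 (adjusted p = 0.0663 to 0.426). RCC1 was also not called with the 24 h arrays in the fit (adjusted p = 0.0522).

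**Figure D2:**
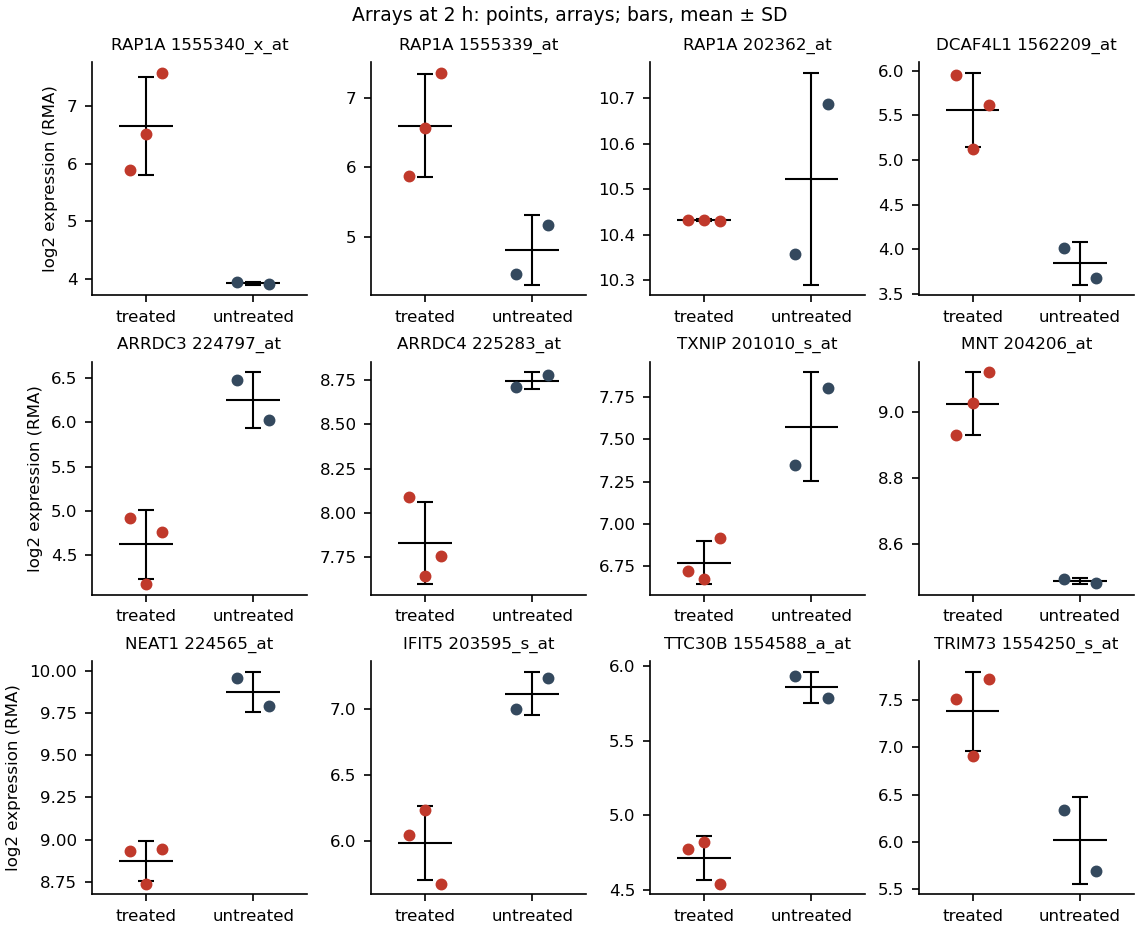
Points are single arrays at 2 h, treated in red and untreated in dark blue, on the log2 scale, and bars give the mean and SD of 3 treated and 2 untreated arrays; each panel has its own y axis. In 11 of the 12 panels, all of called probe sets, the groups do not overlap. This follows from the choice of panels, as it is so for all 300 called probe sets and for 19.8% of all probe sets. RAP1A 202362_at, which was not called, has its 3 treated arrays between the 2 untreated ones.

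In the arrestin-domain family 3 genes, ARRDC3, ARRDC4 and TXNIP, were lower in treated cells. Alpha-arrestins such as ARRDC3, ARRDC4 and TXNIP help to remove receptors and glucose transporters from the cell surface, and TXNIP and ARRDC4 are known targets of the glucose-sensing factor MondoA. Of 19 measured genes in the list of arrestin-domain genes and MondoA partners and targets, 3 were lower and 1 higher, with a median difference of -0.05 over the list, against 0.429% lower and 0.155% higher (0.584% together) and a median near 0 (-0.0032) over 20034 genes, each read by the probe set with the highest mean. ARRDC3 had 4.92, 4.18 and 4.77 log2 units in treated cells, against 6.47 and 6.03 in untreated cells. The lowest untreated array was above the highest treated array, and the difference was -1.63, or 0.323 of the untreated level (SE 0.29, adjusted p = 0.0193, limma). ARRDC4 had 8.09, 7.65 and 7.75 log2 units in treated cells, against 8.71 and 8.78 in untreated cells (difference -0.92, SE 0.17, adjusted p = 0.0211). TXNIP, which also binds thioredoxin, had 6.72, 6.68 and 6.91 log2 units on 201010_s_at in treated cells, against 7.35 and 7.80 in untreated cells (difference -0.80, SE 0.17, adjusted p = 0.0478). Neither ARRDC4 nor TXNIP overlapped between the groups. The other TXNIP probe sets had differences of -0.52 (adjusted p = 0.0827) and -0.49 (adjusted p = 0.174). MNT, a repressor that pairs with MAX and its relative MLX, the partner of MondoA, moved the other way: it had 8.93, 9.03 and 9.12 log2 units in treated cells, against 8.50 and 8.48 in untreated cells (difference 0.54, SE 0.10, adjusted p = 0.0191). Later, ARRDC3 was at 0.72 at 8 h (adjusted p = 0.112) and 0.89 at 16 h (adjusted p = 0.0652) in GFP-positive over GFP-negative cells, and its 2 h difference differed from both (adjusted p = 0.00955 and 0.00606 for the differences of contrasts). ARRDC3, ARRDC4, TXNIP and MNT each stayed called in 1 of 5 fits with 1 array left out, with an adjusted p of 0.0225 to 0.112, 0.0157 to 0.2325, 0.0378 to 0.574 and 0.0225 to 0.214, and with the 24 h arrays the adjusted p was 0.129, 0.119, 0.256 and 0.0216.

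MNT and MondoA complexes are known to bind E boxes, the hexamer CACGTG, and the promoters of 2 of these 4 genes hold it: ARRDC4, which was lower, and MNT, which was higher. The sequences show the 250 bases before each start in RefSeq (GRCh38.p14), with CACGTG in capitals. ARRDC4 lies at chr15:97960453-97960702 on the plus strand, with the hexamer starting at base -210, and MNT at chr17:2401061-2401310 on the minus strand, with the hexamer at base -193.
ARRDC4: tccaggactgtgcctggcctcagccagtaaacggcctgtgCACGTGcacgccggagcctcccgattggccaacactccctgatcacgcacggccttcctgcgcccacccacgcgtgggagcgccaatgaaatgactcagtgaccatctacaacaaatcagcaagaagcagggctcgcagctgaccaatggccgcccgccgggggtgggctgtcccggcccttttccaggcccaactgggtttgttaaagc
MNT: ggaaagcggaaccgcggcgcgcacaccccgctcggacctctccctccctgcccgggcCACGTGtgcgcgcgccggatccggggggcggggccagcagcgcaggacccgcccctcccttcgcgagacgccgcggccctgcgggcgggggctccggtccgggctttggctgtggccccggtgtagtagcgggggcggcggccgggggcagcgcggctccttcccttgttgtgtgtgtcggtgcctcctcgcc
Searched on both strands, on which this hexamer reads the same, CACGTG was found in 6.34% of 35116 promoter windows of that length. It was in 0 of the 2 windows of ARRDC3 and 0 of the 2 of TXNIP.

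NEAT1 was lower in treated cells. It is the long noncoding RNA on which paraspeckles are built, nuclear bodies that hold RBM14, SFPQ and NONO. Of 26 measured genes in the list of paraspeckle proteins and nuclear noncoding RNAs, 2 were lower (NEAT1 and RBM14), with a median of 0.08. On 224565_at NEAT1 had 8.93, 8.74 and 8.95 log2 units in treated cells, against 9.96 and 9.79 in untreated cells (difference -1.002, SE 0.17, adjusted p = 0.0158, limma). On 224566_at the difference was -0.94 (adjusted p = 0.018). On both probe sets the group means lay about 1 log2 unit apart and the arrays did not overlap. The other 3 NEAT1 probe sets were at -0.28, 0.10 and -0.84 and did not pass. RBM14, a paraspeckle RNA-binding protein, had 8.71, 8.31 and 8.31 log2 units in treated cells, against 9.15 and 9.30 in untreated cells (difference -0.78, SE 0.13, adjusted p = 0.0154). None of the 12 MALAT1 probe sets, which read the neighbouring nuclear noncoding RNA, passed (differences of -0.72 to 0.35, adjusted p of 0.64 or more). NEAT1 on 224565_at was called in 1 of the 5 fits with 1 array left out (adjusted p = 0.0287 to 0.119) and RBM14 in 2 (adjusted p = 0.0067 to 0.224). In the fit that includes the 24 h arrays NEAT1 passed as well (adjusted p = 0.0156).

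Among interferon-stimulated genes IFIT5 was lower in treated cells. Of 35 measured genes of that list 1 was lower and 0 higher in limma (4 at an unadjusted p under 0.05 in either direction), and the median was -0.01. IFIT5, an interferon-inducible RNA-binding protein, had 6.04, 6.23 and 5.68 log2 units on 203595_s_at in treated cells, against 7.0 and 7.23 in untreated cells (difference -1.13, SE 0.20, adjusted p = 0.016, limma). On 203596_s_at it had 5.50, 5.75 and 5.14 log2 units in treated cells, against 6.29 and 6.50 in untreated cells (difference -0.93, SE 0.15, adjusted p = 0.0112). Treated replicate 3 was the lowest array on both probe sets, and the groups did not overlap on either. ISG15, a ubiquitin-like modifier, had 7.25, 7.23 and 7.57 log2 units in treated cells, against 6.69 and 6.71 in untreated cells, a difference of 0.65 that missed the threshold (adjusted p = 0.0565). For ISG15 the adjusted p lay between 0.00878 and 0.345 over 15 alternatives, 3 of which called it. IFIT5 on 203595_s_at stayed called in 3 of 5 fits with 1 array left out (adjusted p = 0.0228 to 0.229), not without untreated replicate 2 or treated replicate 3. In GFP-positive over GFP-negative cells IFIT5 on 203595_s_at was at -0.49 at 8 h and -0.10 at 16 h, and neither passed.

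The IFIT5 promoter is shown because the interferon response element, built of repeats of GAAA with 2 bases between them, lies close to its start. It covers chr10:89414318-89414567 of GRCh38.p14 on the plus strand in RefSeq, and the capitals mark that motif, which here lies on the reverse strand and starts at bases -45 and -19.
IFIT5: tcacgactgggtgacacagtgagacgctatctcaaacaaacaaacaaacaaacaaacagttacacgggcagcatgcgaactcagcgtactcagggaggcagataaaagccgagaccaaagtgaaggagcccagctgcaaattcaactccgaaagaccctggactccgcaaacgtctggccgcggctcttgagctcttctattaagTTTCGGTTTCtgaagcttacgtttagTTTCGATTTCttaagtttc
The motif, searched on both strands with overlaps allowed, was in 3.02% of the 35116 windows, that of ISG15 among them.

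The heat shock gene HSPA1A was lower in treated cells, although no gene of the heat shock list passed when read by symbol. HSPA1A and HSPA1B are near-identical genes of the inducible HSP70 chaperone, so probe sets cannot fully tell them apart. Probe set 200800_s_at, which carries no symbol in the deposited table and was named HSPA1A through its accession, had 11.67, 11.85 and 11.70 log2 units in treated cells, against 12.54 and 12.46 in untreated cells (difference -0.76, SE 0.14, adjusted p = 0.0201, limma). Probe set 202581_at, named HSPA1B in the same way, had 11.67, 11.84 and 11.75 log2 units in treated cells, against 12.26 and 12.38 in untreated cells (difference -0.56, SE 0.10, adjusted p = 0.0201). On both, every treated array was below every untreated array. HSPA1A on 200799_at was at -0.71 and did not pass (adjusted p = 0.105). In the later comparison of sorted cells, where both groups had met polyplexes, the sign was opposite. HSPA1A on 200800_s_at was 0.55 log2 units higher in GFP-positive than in GFP-negative cells at 8 h (adjusted p = 0.0125, limma) and 0.47 at 16 h (adjusted p = 0.0388). The 2 h difference differed from each (adjusted p = 0.00376 and 0.00529 for the differences of contrasts). In the list of 26 measured heat shock genes and co-chaperones 0 were called in limma (3 at an unadjusted p under 0.05), with a median of -0.01. The HSPA1A call on 200800_s_at held in 1 of 5 fits with 1 array left out (adjusted p = 0.0412 to 0.177), and HSPA1B held in 2 (adjusted p = 0.0412 to 0.280). Both probe sets were chosen after their values were seen.

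FOS and EGR1 differed more between the 2 untreated arrays than between treated and untreated cells. They are immediate early genes, which encode transcription factors that cells switch on within minutes of a stimulus. FOS had 4.87, 4.51 and 4.35 log2 units in treated cells, against 8.03 and 4.43 in untreated cells. EGR1 on 201694_s_at had 6.62, 6.4 and 6.31 log2 units in treated cells, against 10.16 and 6.62 in untreated cells. On these probe sets untreated replicate 1 alone was high, and untreated replicate 2 lay within or beside the treated range. On 2 other EGR1 probe sets untreated replicate 2 also lay above every treated array. EGR1 on 201693_s_at had 4.43, 4.47 and 4.71 log2 units in treated cells, against 8.05 and 5.21 in untreated cells (difference -2.10, adjusted p = 0.0592), and on 227404_s_at it had 5.10, 4.45 and 4.82 in treated cells, against 8.66 and 5.35 in untreated cells (difference -2.21, adjusted p = 0.0944). Without untreated replicate 1 the differences on 201693_s_at and 227404_s_at were -0.68 and -0.55. The differences of -1.65 for FOS (adjusted p = 0.323) and -1.95 for EGR1 on 201694_s_at (adjusted p = 0.186) did not pass in limma. Without untreated replicate 1 the differences of FOS and EGR1 on 201694_s_at were 0.15 and -0.18, and without untreated replicate 2 they were -3.46 and -3.72, with an adjusted p between 4.99e-05 and 1 for FOS and between 1.58e-06 and 1 for EGR1 over the 5 such fits. FOSB was at -0.18 and ATF3 at -0.06. JUN was lower on 201466_s_at, with 9.34, 9.17 and 9.23 log2 units in treated cells, against 9.86 and 9.74 in untreated cells (difference -0.56, adjusted p = 0.0481). JUN on the probe set with the highest mean, 201464_x_at, was at -0.28 (adjusted p = 0.443), and the 201466_s_at call held in 0 of 5 fits with 1 array left out (adjusted p = 0.0578 to 0.233). Of 34 measured immediate early genes 0 were called in limma by the probe set with the highest mean (5 at an unadjusted p under 0.05).

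**Figure D3:**
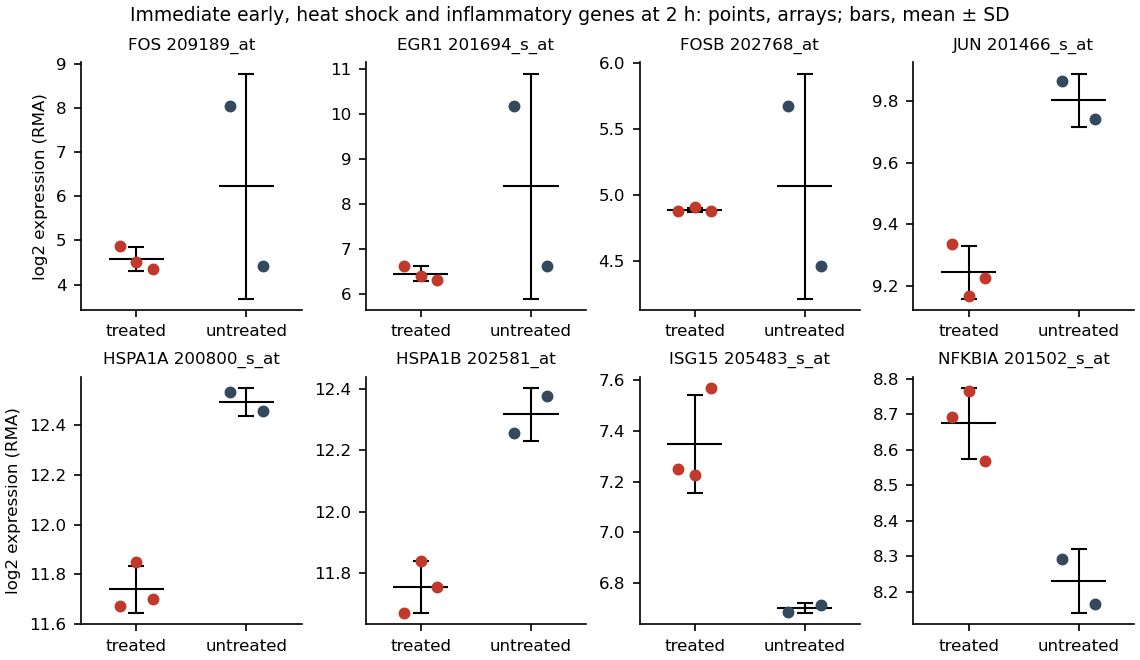
Points are single arrays at 2 h on the log2 scale, treated in red and untreated in dark blue, with mean and SD as bars (3 treated, 2 untreated arrays; each panel has its own y axis). FOS and EGR1 have 1 high untreated array each, HSPA1A and HSPA1B lie lower in all treated arrays, and ISG15 and NFKBIA lie higher in all treated arrays without passing the test.

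Other lists held few calls. In the tripartite motif (TRIM) family, whose members are mostly ubiquitin ligases, 1 of 44 measured genes was higher and 1 lower by the probe set with the highest mean. TRIM73 had 7.50, 6.91 and 7.71 log2 units in treated cells, against 6.34 and 5.70 in untreated cells (difference 1.36, SE 0.22, adjusted p = 0.0109, limma). Its groups did not overlap. TRIM73 passed in 3 of 5 fits with 1 array left out, and its difference was 1.04 without untreated replicate 2 (adjusted p = 0.215, the largest of the 5; the smallest was 0.00518). TRIM73 has near-identical relatives, from which its probes may not be told apart. TRIM69 was at -0.66 on 1568592_at and at -0.001 and -0.04 on its other probe sets. TRIM9, TRIM45 and TRIM14 were lower on other probe sets than the one with the highest mean, with differences of -1.10, -0.74 and -0.56.

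Among 37 measured genes of intraflagellar transport and cilia, 2 were lower, TTC30B and CLUAP1, both parts of the particle that carries cargo along the cilium. TTC30B had 4.78, 4.82 and 4.54 log2 units on 1554588_a_at in treated cells, against 5.93 and 5.78 in untreated cells (difference -1.14, SE 0.16, adjusted p = 0.00491, limma), and was at -1.34 on its other probe set (adjusted p = 0.0057). The TTC30B groups were apart by more than their spread on both probe sets. CLUAP1 was at -0.48 (adjusted p = 0.0448). Of the cytokine feedback list, SOCS7 alone of 16 genes was called, at 0.63 (adjusted p = 0.02), and of 27 NRF2 genes MAFG alone, a small partner protein of NRF2, at 0.53 and 0.50 on its 2 probe sets. At 8 h SOCS7 and MAFG on 204970_s_at were at -0.45 and -0.41 in GFP-positive over GFP-negative cells (adjusted p = 0.0138 and 0.0115, limma). The 2 h difference differed from that of 8 h (adjusted p = 0.00376 and 0.00415 for the difference of contrasts). Both groups of 8 h had met polyplexes, so a change of the treatment effect over time was not measured. The SOCS7 call held in 1 of 5 fits with 1 array left out and the MAFG calls in 0. In the HEK293 marker list NEFL, the light neurofilament, was lower on 221805_at (difference -0.58, adjusted p = 0.0183), and its other 2 probe sets were at -0.08 and 0.11.

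Most lists on uptake, stress and inflammation held no called gene. In 19 of the 29 lists 0 probe sets passed in limma, with list medians of -0.15 to 0.04. At an unadjusted p under 0.05 there were 54 of their 464 genes (11.6%), against 10.1% of all 20034 genes. They include clathrin, caveolin and macropinocytosis genes (36 genes, median -0.08), heparan sulfate synthesis (30, median -0.03), V-ATPase and lysosome (36, median -0.03), cytosolic nucleic acid sensing (24, median 0.00), NF-kB and inflammatory genes (32, median 0.00), ATF4 targets (26, median -0.12), the unfolded protein response (26, median -0.09) and p53 targets (25, median -0.15). Of the 25 p53 targets 20 were below 0 and 10 had an unadjusted p under 0.05, with differences over the list of -0.61 (PHLDA3, adjusted p = 0.155) to 0.55 (BBC3, adjusted p = 0.103). NFKBIA, the inhibitor of NF-kB that NF-kB itself induces, was at 0.44 (adjusted p = 0.109), CXCL8 at 0.11, and the stress genes DDIT3 and DDIT4 at 0.06 and 0.05. A change of 0.5 log2 units was recovered in 27.8% of simulated cases, so changes of that size could be missed here. Of the remaining lists without a call, cholesterol synthesis (27 genes), G2/M (29), G1/S (26), ribosome biogenesis (27), histones (18), cytoskeleton and SRF targets (23), polyamine genes (16), metallothioneins (11) and the haematopoietic and stromal markers (13 each) had medians of -0.06 to 0.04. Of 29 Rab and Rap GTPase genes 0 were called in limma by the probe set with the highest mean (3 at an unadjusted p under 0.05), and 3 probe sets were higher: those of RAP1A and, at 0.65, RAB6A 1559174_at, while RAB6A was at -0.08 on 201047_x_at.

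Further genes with large negative differences were of many kinds. LOC729088 was at -1.48 (adjusted p = 0.00491, limma) and LOC284926 at -1.35 (adjusted p = 0.00682). ENPP5, of the ectonucleotide pyrophosphatase family, was at -1.34, SLC16A6, of the monocarboxylate transporter family, at -1.19, FAM86B1 at -1.22, and PARP8, an ADP-ribosyltransferase, at -1.15 on 244008_at and -0.40 on 219033_at. CIRBP, the cold-inducible RNA-binding protein, was at -1.24 on 230142_s_at (adjusted p = 0.0106) and at -0.09 on 200810_s_at, and ARGLU1, a splicing regulator, was at -1.18 on 227448_at and -0.10 on 218067_s_at. PTPRO, a receptor phosphatase, and RHOB, a small GTPase of endosomes and actin, were at -1.01 each on the probe set with the highest mean. Both were chosen after their values were seen. The other probe sets were at 0.31 and -0.02 for PTPRO, and at 0.24, 0.23, -0.01 and -0.02 for RHOB. Such disagreement was common: of the 232 called probe sets with a symbol, 115 were not the one with the highest mean of their gene, and in 57 of these 115 that other probe set was within 0.2 log2 units of 0. Of the named called probe sets 49.6% were of this kind, against 52.0% of all named probe sets. Of 19 genes with more than 1 called probe set, 17 had them in 1 direction. LUC7L, a splicing factor gene, was at 0.53 on 1557067_s_at and at -0.88 on 1557066_at, where the arrays lay at 2.39 to 3.55 log2 units (first quartiles of 3.41 to 3.47), and its other 3 probe sets were at 0.26, 0.47 and 0.39. MBD5, a methyl-CpG-binding domain gene, was at 1.07 and -0.86 on called probe sets and at -0.01 on 244662_at.

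At the later times part of the 2 h calls recurred between GFP-positive and GFP-negative cells. Of the 117 higher probe sets, 15 were higher at 8 h (12.8%) and 19 at 16 h (16.2%), where 2.75% and 2.47% of all probe sets were called higher. Of the 183 lower probe sets, 42 were lower at 8 h (23%) and 19 at 16 h (10.4%), where 4.15% and 1.96% of all were called lower. Others were opposite: 5 and 2 of the higher probe sets were lower at 8 h and 16 h, and 10 and 15 of the lower ones were higher. The 2 comparisons ask different questions, since both later groups had met polyplexes, and 1 estimate of spread for each probe set serves all times, so a probe set with a small spread passes more readily in each. The difference between contrasts itself passed in 49 and 47 of the higher probe sets (41.9% and 40.2%). It passed in 68 and 80 of the lower ones (37.2% and 43.7%), against 1.06% and 1.35% of all. The 2 h difference by which these probe sets were chosen is part of that contrast. A larger share than over all probe sets therefore follows from the choice. TXNIP and CIRBP on 230142_s_at were lower at 2 h and higher in GFP-positive cells at 16 h, by 0.63 (adjusted p = 0.0286) and 0.82 (adjusted p = 0.0128), and both differences of contrasts passed (adjusted p = 0.00731 and 0.00152). OVGP1 and EML5 on 242443_at were higher in treated cells at 2 h, by 0.80 and 0.72 log2 units. In GFP-positive over GFP-negative cells OVGP1 was 0.92 and 0.84 higher at 8 and 16 h, and EML5 on 242443_at 0.90 and 0.80. Both were chosen after their values were seen. EML5 on 1568777_at, its probe set with the highest mean, was at -0.16 at 2 h, and the 2 h calls of OVGP1 and EML5 held in 0 and 1 of 5 fits with 1 array left out.

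**Figure D4:**
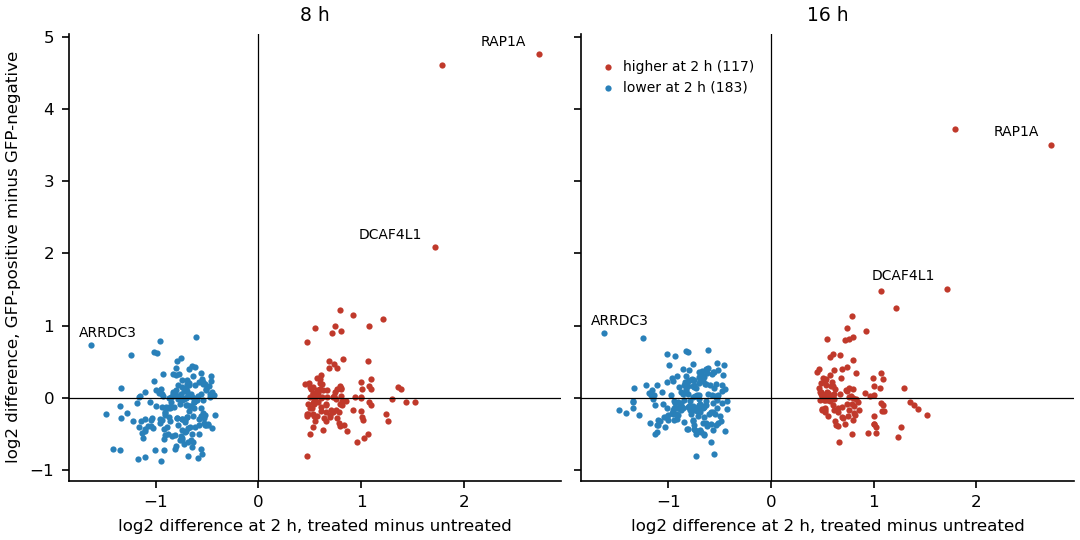
For each of the 300 probe sets called at 2 h, the x axis gives the log2 difference at 2 h, treated minus untreated, and the y axis the log2 difference, GFP-positive minus GFP-negative, at 8 h (left) and 16 h (right); red marks higher and blue lower at 2 h. The 2 RAP1A probe sets and DCAF4L1 lie high in both panels, most points lie within 1 log2 unit of 0 on the y axis, and ARRDC3 lies below 0 at 2 h and above 0 later.

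**Figure D5:**
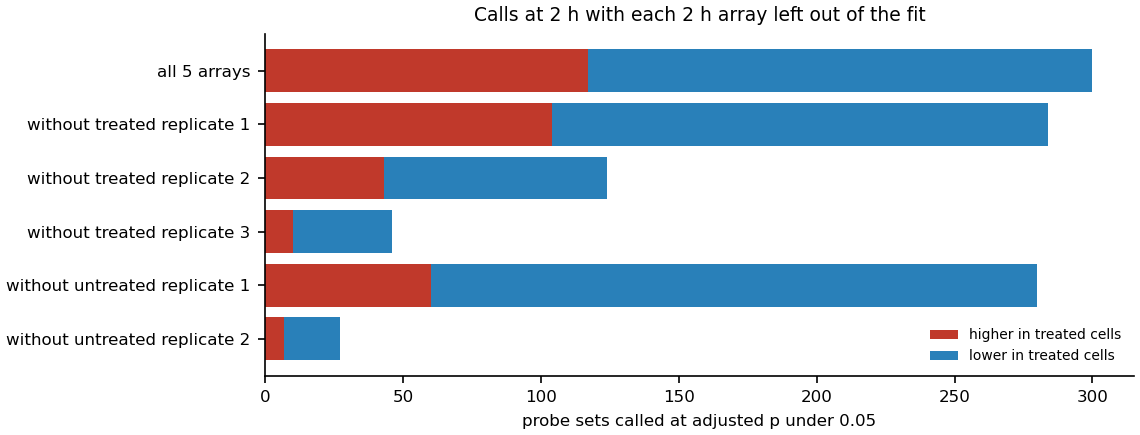
Bars count all probe sets called at an adjusted p under 0.05 in limma, split into higher (red) and lower (blue) in treated cells. They are shown with all 5 arrays of 2 h and with each left out in turn, and also count probe sets that are not among the 300. The count is 300 with all arrays and lies between 27 without untreated replicate 2 and 284 without treated replicate 1.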

How the data were processed

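Expression was measured on 23 arrays of biotin-labelled cRNA. The values deposited by the authors are log2 expression per probe set, made with RMA in R 2.11.1 for the 2, 8 and 16 h arrays per the submitters' processing notes. For 2 h the authors also deposited a table with a log2 fold change and a posterior probability, a score from 0 to 1 of an unnamed model.

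Here the 62 control probe sets were left out. Group means of the 17 arrays of 2, 8 and 16 h (6 groups) were fitted in R 4.3.3 by lmFit and eBayes of limma 3.58.1 (two-sided), so that all groups share 1 spread, and p-values were adjusted by Benjamini-Hochberg over 54613 probe sets. The 6 arrays of 24 h were left out. Each time appears to be normalized apart, so levels were set side by side within a time. Whether the 2 h difference equalled that of a later time was tested as a difference of contrasts. Probe sets called at 2 h pass that test more readily, as the 2 h difference is part of it. For GFP-positive 8 h replicate 3 the source name reads 16 h, and the title was followed.

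Symbols came from the deposited 2 h table, updated through RefSeq. Of 54675 probe sets, controls included, 35953 symbols were current, 3522 were updated, 2178 were kept as given and 64 were recovered from dates. Among the 54613 that are not controls, 207 probe sets without a symbol were matched by accession.

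The members and the 29 gene lists were chosen with earlier results of these data known. Named genes are the 15 largest differences in each direction among called probe sets with a symbol and no overlap of the groups, called list members (up to 6 a list), every other probe set of those genes, and 30 fixed genes, 28 of them measured; others were chosen after their values were seen. Some genes that this rule names are not reported here. In simulated data with 200 changed probe sets of 54613, 27.8% of those changed by 0.5 log2 units were recovered, 95.3% at 1 and 100% at 2, and 3 of 148 calls were false. The simulated noise was independent and normal, with 1 spread per probe set in all groups, as the fit assumes. No simulated array stood apart as some real ones did, so these shares may not hold for the real arrays. Alternatives were a fit with all 23 arrays, the 2 h arrays alone, the replicate number as a block, quantile normalization, median centring, the lowest 40% of probe sets left out, array weights, a trend in the prior variance, control probe sets kept, 1 probe set per gene, and each 2 h array left out. A group left with 1 array was assumed to vary like the others.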

Additional observations from a re-analysis of the deposited data

How the results depend on the processing

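Against 300 probe sets called (117 higher, 183 lower), the fit with all 23 arrays called 107 (40 and 67), the 2 h arrays alone 0 in limma (5066 at an unadjusted p under 0.05), array weights 1602 (669 and 933) and 1 probe set per gene 147 (42 and 105 of 20034 genes). The 107 were all among the 300, and the 1602 held all 300. Leaving out 1 array gave between 27 and 284. Quantile normalization gave 260 (124 higher, 136 lower), centring on the median 311 (102 and 209), the lowest 40% left out 298, a prior trend 317 and control probe sets kept 298. The 2 h replicates of a number correlated at -0.11 and -0.05 in their deviations from the group means. With 2 untreated arrays these deviations mirror each other, so the values cannot tell whether arrays of a number share a day. With the replicate number as a block 339 were called (121 and 218), of which 182 were among the 300. Treated replicate 3, which has no untreated partner, does not enter that value. Of 54 named called probe sets, 27 stayed called with all 23 arrays, 0 with 2 h alone, 41 with the block, 47 with quantile normalization, 50 with centring, and 39, 27 and 14 without treated replicates 1, 2 and 3, against 20 and 8 without untreated replicates 1 and 2. No called value of these changed sign, which leaving out 1 array could not have brought about, since their groups do not overlap. Of those not called, 7 changed sign when 1 array was left out, over ranges of -3.46 to 0.15 for FOS, -0.787 to 0.425 for FOSB, -0.0184 to 0.147 for DDIT3, -0.238 to 0.329 for DDIT4, -0.119 to 0.0143 for ATF3, -0.255 to 0.0731 for RAP1A on 202362_at and -0.0455 to 0.0269 for RAP1B, and with the block ATF3 was at 0.0143 and RAP1B at 0.0024. The cause was not tested, except that fewer arrays or fewer probe sets were fitted. With 2 untreated arrays, the number of arrays limits what can be called.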

Other observations

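In the authors' deposited table for 2 h, 238 probe sets have a posterior above 0.95. Of these, 64 were called here, and 236 of the 300 called probe sets had a posterior at or below 0.95 in the authors' deposited table, with a median of 0.833 over the 300. The authors' deposited table gives EGR1 on 201694_s_at a posterior of 0.9974 and RAP1A on 1555340_x_at one of 0.5133, while limma called RAP1A and not EGR1.

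Zinc finger genes whose symbol begins with ZNF made up 8 of the 143 lower genes (5.59%), namely ZNF18, ZNF239, ZNF287, ZNF362, ZNF37BP, ZNF426, ZNF529 and ZNF738, and 1 of the 69 higher genes (1.45%), ZNF519, against 2.43% of all 20034 genes. Long noncoding RNA genes were 5 of the 130 lower genes with a RefSeq class (3.85%: HCG18, LINC00339, MAGI2-AS3, NEAT1 and RBM26-AS1) and 2 of 66 higher ones (3.03%: LINC00342 and SNHG7), against 4.08% of all. Both groupings were chosen after the values were seen.

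Of the 117 higher probe sets 34.2% carried no gene symbol, against 15.3% of the 183 lower ones and 23.6% of all. By accession, 4 called probe sets without a symbol could be named: HSPA1A, HSPA1B, F8A1 at -1.06 and ADORA2A, an adenosine receptor, at 0.61.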
